A study of Homo sapiens with 36 samples.

Results

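C4-2B is a human prostate cancer (PCa) line of the LNCaP lineage that was derived, through C4-2, from a tumor grown in bone, and it serves as a model of osteoblastic PCa. C4-2B cells were grown for 5 days with 50 ng/mL RANKL either beside RAW264.7 cells, mouse macrophages able to become osteoclasts (OCs), or alone. RANKL was present in both groups, so they differed by the neighboring RAW264.7 cells. The 2 C4-2B libraries from co-culture (C4-2B_RANKL50_RAW) and the 2 from mono-culture (C4-2B_RANKL50_solo) were chosen by their labels, and they are 4 of the 36 libraries of the series. The study grew the 2 cell types in neighboring wells joined by a filter, and the sequenced RNA was that of the PCa cells. The same comparison, with 4 libraries each, exists in C4-2, its parental osteoblastic line, and in DU145 and 22Rv1, which are labelled osteolytic. Each of the 4 lines is a single established line, and the labels do not say whether equal conditions came from separate cultures, so the p-values measure only the spread between these libraries.

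RANKL (TNFSF11) binds its receptor RANK on macrophage-like precursors and starts OC differentiation, and OCs then release matrix-bound factors while resorbing bone. PCa cells of the LNCaP lineage respond to androgen, which turns on luminal genes such as the kallikreins. FOS belongs to the immediate early genes, which respond to growth factors and stress within minutes and whose products form the transcription factor AP-1.

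The 4 C4-2B libraries held between 11659920 and 15418211 estimated counts. The authors scaled these counts by transcript length (scaled TPM counts), so a count given below is not a read. Levels are given in CPM, the scaled counts relative to the library total, and are thus levels per transcript length. The libraries carried the luminal identity of the line: all 10 identity genes passed the count filter, with HOXB13, a prostate homeobox factor, at 136 and 130 CPM in co-culture and 127 and 133 CPM with RANKL alone. Of 16 macrophage markers, 6 were at 0 in all 4 libraries, TYROBP, an adaptor of myeloid receptors, among them. The summed macrophage level was 22.0 and 18.8 CPM in co-culture against 19.9 and 20.3 CPM with RANKL alone, so the groups overlapped. The table counts human transcripts, so these levels do not show whether RNA of the mouse RAW264.7 cells was present. Only CD68, a lysosomal protein that is not confined to macrophages, passed the filter, at 14.5 and 14.2 CPM against 14.2 and 16.3 CPM. Osteoclast markers also overlapped, with summed levels of 64.9 and 58.9 CPM against 61.6 and 56.1 CPM and no call among the 4 tested.

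The transcriptome of C4-2B differed little between co-culture and RANKL alone. Of 11525 genes tested with edgeR, 8 were higher (0.0694%) and 8 lower (0.0694%) with RAW264.7 cells at an adjusted p under 0.05. By the looser rule of a 2-fold change with an unadjusted p under 0.05, 20 genes were higher (0.174%) and 35 lower (0.304%). At an unadjusted p under 0.05 alone, 337 genes were higher (2.92%) and 400 lower (3.47%). Levels did not overlap between the groups, with co-culture higher, for 16.4% of genes, and with co-culture lower for 19.5%. The root mean square log2 difference over 8608 genes was 0.163 between the co-culture libraries and 0.154 between those with RANKL alone, against 0.156 to 0.175 across the groups. The mean chi-square per gene of the scaled counts, in which genes of high counts weigh more, was 4.25 and 3.12 within the groups and 4.37 to 6.01 across them. The counts of calls rested on the replicates: without co-culture replicate 1 or without RANKL-alone replicate 2, 0 genes passed in either direction. Without co-culture replicate 2 there were 3 higher and 4 lower, and without RANKL-alone replicate 1 there were 4 higher and 6 lower. DESeq2 called 10 higher and 13 lower, and 12 genes were called by both tools. With limma on log2 levels, a test that does not treat the values as counts, 4 were higher and 6 lower, all among the 16, and PLP2, CAMK2N1, COLEC12, ALCAM and AZGP1 were among the lost calls.

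**Figure D1:**
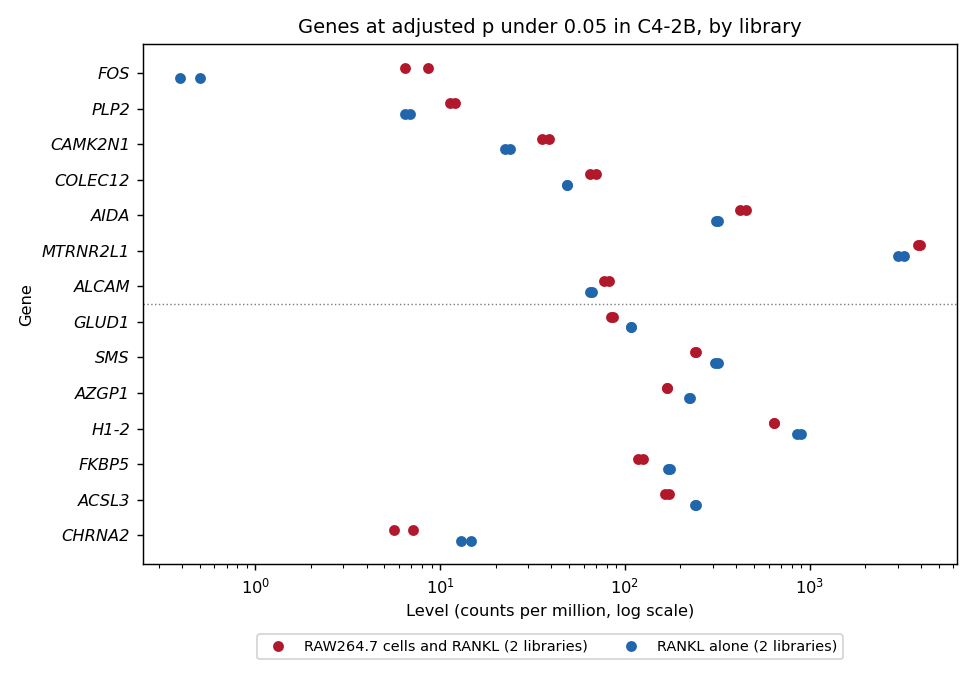
Levels in CPM (log scale) of 14 of the 15 genes at an adjusted p under 0.05 with at least 100 counts in a C4-2B library. Red points are the 2 libraries with RAW264.7 cells and RANKL, blue points the 2 with RANKL alone, and the dotted line separates the 7 higher from the 7 lower genes. The colors do not mix in any row, and FOS has the widest gap, from 0.39 and 0.50 CPM to 8.57 and 6.45 CPM.

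FOS showed the largest rise among the called genes with at least 100 counts in a C4-2B library. It was listed at 8.57 and 6.45 CPM in co-culture and at 0.390 and 0.503 CPM with RANKL alone, which are 132 and 75 counts against 5 and 6. Both co-culture libraries were far above both controls. FOS reached the filter of 100 counts only through co-culture libraries (C4-2B and 22Rv1), so it entered the test by the group where it was high. Its adjusted p was 0.00807 with a minimum of 10 counts in 2 libraries and 0.000154 without a filter, both in edgeR. The log2 fold change was 4.09 ± 0.45 (SE), or 17.1-fold, with an adjusted p of 0.00366 in edgeR's quasi-likelihood test. When each library was left out in turn the change stayed between 3.89 and 4.30, and the adjusted p between 0.012 and 0.0654, past 0.05 without co-culture replicate 1 or RANKL-alone replicate 2. DESeq2 gave 4.12 without an adjusted p, because its own filter set the gene aside. Of 10 FOS transcripts in the table, 8 had counts, and 4 of these had more counts in both co-culture libraries than in either control. ENST00000303562 held 26.9 and 30.9 counts in co-culture against 4.2 and 0.

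The window from 250 bases before to 50 after the FOS start (RefSeq, GRCh38.p14, chr14:75278578-75278877, plus strand) is shown because FOS had the largest rise of the called genes with at least 100 counts in a C4-2B library. Capitals mark TGACG, the core of the cAMP response element, 64 bases before the start, and TATAAA, 33 bases before it. On either strand TGACG occurs in 24.6% of 35116 such windows and TATAAA in 11.5%, and no motif overlaps another.

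FOS: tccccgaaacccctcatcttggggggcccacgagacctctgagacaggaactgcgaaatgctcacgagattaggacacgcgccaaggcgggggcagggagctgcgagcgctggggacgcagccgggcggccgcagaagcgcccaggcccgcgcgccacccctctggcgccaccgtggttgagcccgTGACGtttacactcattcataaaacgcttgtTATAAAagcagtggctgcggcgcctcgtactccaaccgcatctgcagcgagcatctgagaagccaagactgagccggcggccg

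Other immediate early genes were also measured. Only 8 of the 21 tested had a mean of at least 100 counts in C4-2B, and 5 had under 10. Of the 21, FOS was the only gene past the adjusted threshold, and IER2 and DUSP1 rose only at an unadjusted p under 0.05, which is 3 higher of 21 and 0 lower, where 2.92% of all genes were higher. The list median was 0.031 on the log2 scale, against -0.00031 over all genes tested. DUSP1, a phosphatase that ends MAP kinase signaling, was at 18.0 and 14.8 CPM in co-culture and at 11.8 and 14.7 CPM with RANKL alone. IER2 was at 29.6 and 27.3 CPM against 25.4 and 25.1 CPM. JUN, the partner of FOS in AP-1, was at 14.7 and 13.7 CPM against 11.7 and 12.9 CPM (log2 change 0.22 ± 0.11, adjusted p = 0.827 in edgeR). EGR1, an early zinc finger factor, was at 4 counts or fewer in these libraries. ZFP36, which destabilizes early-response mRNAs, had 9.91 and 8.83 CPM against 3.34 and 2.55 CPM (log2 change 1.67 ± 0.43) and missed the adjusted threshold (0.324 in edgeR). It passed in a fit of the 4 C4-2B libraries alone (0.0268) and of the 8 libraries of C4-2 and C4-2B (0.0265), and its adjusted p ranged up to 0.935 over the other alternatives.

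**Figure D2:**
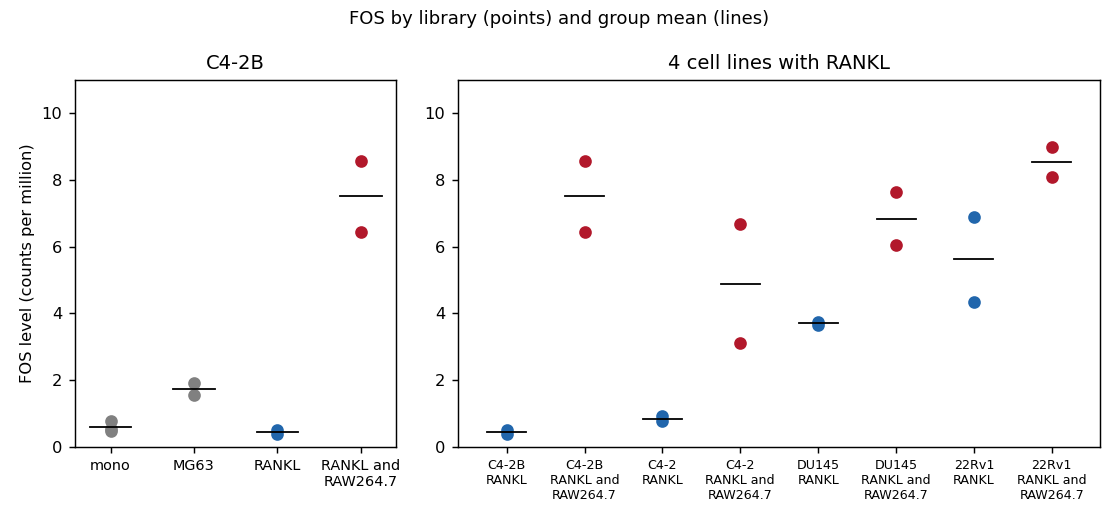
FOS level in CPM by library (points) with group means (lines). On the left, C4-2B in mono-culture, with MG63 cells, with RANKL and with RANKL and RAW264.7 cells, where only the last group lies above 2 CPM. On the right, the 4 lines with RANKL alone (blue) and with RAW264.7 cells (red).

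FOS was also compared across the cultures of the series. In C4-2B mono-cultures without RANKL it was at 0.472, 0.759 and 0.524 CPM, close to the level with RANKL alone. Beside MG63 cells, human osteosarcoma cells used as osteoblast-like neighbors, it was at 1.91 and 1.54 CPM. In C4-2 it went from 0.770 and 0.911 CPM with RANKL alone to 6.67 and 3.11 CPM with RAW264.7 cells (log2 change 2.56 ± 0.42, adjusted p = 0.0588 in edgeR). DU145 had 3.74 and 3.66 CPM alone and 7.62 and 6.04 CPM in co-culture, and 22Rv1 had 6.89 and 4.35 CPM alone and 8.97 and 8.08 CPM in co-culture. Levels with RANKL alone were lowest in C4-2B and C4-2, while the co-culture levels of C4-2B overlapped those of C4-2 and DU145 and reached above the lower value of 22Rv1. The difference of the FOS change between C4-2B and 22Rv1 was 3.46 ± 0.57 and that between C4-2B and DU145 was 3.23 ± 0.58, with adjusted p of 0.137 and 0.11 in edgeR, so neither passed.

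The remaining 6 rises with at least 100 counts were between 1.22-fold and 1.75-fold. PLP2, a membrane protein of the secretory pathway, was at 11.3 and 12 CPM in co-culture and at 6.49 and 6.84 CPM with RANKL alone (log2 change 0.80 ± 0.14, adjusted p = 0.0483 in edgeR). CAMK2N1, an inhibitor of calmodulin-dependent kinase II, was at 39.0 and 35.5 CPM against 22.6 and 23.8 CPM (log2 change 0.69 ± 0.10). Both genes thus rose by well over the gap between their replicates. COLEC12, a scavenger receptor of the collectin family, was at 69.9 and 64.5 CPM against 48.7 and 48.6 CPM. AIDA, which binds axin, was at 453 and 422 CPM against 319 and 314 CPM, a log2 change of 0.47 ± 0.06 with an adjusted p of 0.00454 in edgeR. ALCAM, the adhesion molecule CD166, was at 82.5 and 77.0 CPM against 64.8 and 66.3 CPM. Mono-cultures without RANKL had 44.6 to 49.2 CPM of CAMK2N1, above co-culture, and the change turned to -0.26 with them as control (adjusted p = 0.0747 in edgeR). AIDA was at 418 to 435 CPM there and lost its call against them (log2 change 0.13, adjusted p = 0.321 in edgeR).

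MTRNR2L1 rose from 3006 and 3231 CPM to 3984 and 3882 CPM (log2 change 0.34 ± 0.05). It is a nuclear gene that resembles the mitochondrial 16S rRNA gene closely, so its reads cannot be assigned with certainty. The 13 protein genes of the mitochondrial genome had a median log2 change of 0.077, with 2 higher at an unadjusted p under 0.05 and 7 higher without overlap, against 2.92% and 16.4% of all genes. They took 11.07% and 10.98% of counts in co-culture and 10.13% and 10.77% with RANKL alone, and the part of this share in the MTRNR2L1 value was not tested. VAV1, a signaling protein of blood cells, completed the 8 higher genes with 8 and 5 counts against 0 and 0. It fell short of 100 counts in every C4-2B library, and mono-cultures without RANKL had 0.750, 0.392 and 0.404 CPM against 0.541 and 0.433 CPM in co-culture.

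Among the 8 lower genes, CHRNA2, a subunit of nicotinic acetylcholine receptors, changed most. It was at 7.18 and 5.65 CPM in co-culture and at 14.8 and 13.0 CPM with RANKL alone (log2 change -1.10 ± 0.15, adjusted p = 0.00786 in edgeR). The others fell by 1.26-fold to 1.42-fold. ACSL3, an acyl-CoA synthetase of lipid droplets, had 173 and 165 CPM against 242 and 241 CPM (log2 change -0.51 ± 0.07). FKBP5, a co-chaperone of steroid receptors and a gene strongly induced by androgen, had 126 and 119 CPM against 171 and 177 CPM (log2 change -0.50 ± 0.07). The replicates of both genes lay far closer to each other than to the other group.

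AZGP1, a glycoprotein secreted by prostate epithelium, was at 168 and 170 CPM in co-culture and at 224 and 223 CPM with RANKL alone. SMS, which makes the polyamine spermine, was at 243 and 241 CPM against 310 and 319 CPM, and GLUD1, a mitochondrial glutamate dehydrogenase, at 84.6 and 85.9 CPM against 108 and 108 CPM. The linker histone H1-2 was at 639 and 643 CPM against 856 and 898 CPM, a log2 change of -0.44 ± 0.06 with an adjusted p of 0.00454 in edgeR. H1-2 in mono-cultures without RANKL lay below both groups, at 534, 514 and 504 CPM, so co-culture was lower only when set against RANKL alone.

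Promoter windows of ACSL3, FKBP5 and H1-2 (RefSeq, GRCh38.p14, same extent as for FOS) are shown because ACSL3 and FKBP5 are the androgen response genes that passed the test and H1-2 passed it in C4-2 as well. The ACSL3 window is chr2:222860786-222861085 on the plus strand. RefSeq lists 2 FKBP5 starts on the minus strand, at chr6:35728534-35728833 and chr6:35688866-35689165, and the H1-2 window is chr6:26056421-26056720 on the minus strand. Capitals mark CCAAT, which occurs on either strand in 34.6% of all windows. They also mark AGAACA, a core bound by steroid receptors, which occurs in 14.8%. In H1-2 they mark AAACACA of histone H1 promoters too, which occurs in 5.64% and whose first match is on the opposite strand. The marked matches do not overlap.

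ACSL3: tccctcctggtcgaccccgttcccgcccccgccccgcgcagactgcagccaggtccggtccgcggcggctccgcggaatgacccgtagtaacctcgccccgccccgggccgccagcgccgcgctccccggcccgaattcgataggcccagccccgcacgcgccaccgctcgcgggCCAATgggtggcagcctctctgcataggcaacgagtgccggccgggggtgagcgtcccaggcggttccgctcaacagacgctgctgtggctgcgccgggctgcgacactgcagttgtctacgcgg
FKBP5, first start: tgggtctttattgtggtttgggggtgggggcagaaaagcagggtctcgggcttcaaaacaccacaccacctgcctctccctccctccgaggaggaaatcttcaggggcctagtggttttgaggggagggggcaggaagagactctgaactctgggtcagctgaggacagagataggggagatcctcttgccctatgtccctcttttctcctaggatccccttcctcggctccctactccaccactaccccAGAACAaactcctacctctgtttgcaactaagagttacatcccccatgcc
FKBP5, second start: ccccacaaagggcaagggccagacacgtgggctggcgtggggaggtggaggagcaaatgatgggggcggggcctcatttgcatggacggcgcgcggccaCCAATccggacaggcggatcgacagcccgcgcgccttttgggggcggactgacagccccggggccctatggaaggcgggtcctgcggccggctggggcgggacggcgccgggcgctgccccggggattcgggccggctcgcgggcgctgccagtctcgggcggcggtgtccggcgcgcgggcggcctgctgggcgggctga
H1-2: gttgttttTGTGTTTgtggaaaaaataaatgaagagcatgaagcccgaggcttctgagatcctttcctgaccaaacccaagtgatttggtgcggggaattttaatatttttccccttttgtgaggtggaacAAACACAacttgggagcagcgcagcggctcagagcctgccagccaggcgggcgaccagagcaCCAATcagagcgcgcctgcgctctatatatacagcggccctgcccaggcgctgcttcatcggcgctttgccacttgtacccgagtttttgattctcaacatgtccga

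AGAACA stands at the first FKBP5 start and in neither of the other FKBP5 and ACSL3 windows. CCAAT lies 75 bases before the ACSL3 start, 151 before the second FKBP5 start and 57 before that of H1-2, whose window also holds AAACACA at 242 and 119 bases before it. The counts are summed over transcripts and do not separate the FKBP5 starts.

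FKBP5 and ACSL3 belonged to a list of 24 androgen response genes, of which 21 passed the count filter. In C4-2B, 2 of the 21 were lower at an adjusted p under 0.05 and none higher. At an unadjusted p under 0.05, 11 were lower and 0 higher, where 3.47% of all genes were lower. Levels did not overlap for 13 lower genes and 1 higher, where 19.5% of all genes were lower and 16.4% higher without overlap. The list median was -0.21, and between -0.22 and -0.16 when each library was left out. Over the 20 members with a mean of at least 100 counts in C4-2B it was -0.17. NDRG1, which responds to androgen and to hypoxia, was at 111 and 93.2 CPM in co-culture and at 138 and 138 CPM with RANKL alone (log2 change -0.42 ± 0.10, adjusted p = 0.263 in edgeR). SLC45A3, the prostate antigen prostein, was at 45.0 and 39.3 CPM against 59.0 and 57.0 CPM (log2 change -0.45 ± 0.14). KLK2, a kallikrein, was at 571 and 568 CPM against 648 and 673 CPM, and TMPRSS2, a membrane protease, at 154 and 139 CPM against 172 and 171 CPM.

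KLK3, which encodes prostate-specific antigen, was at 3085 and 2951 CPM in co-culture against 3286 and 3204 CPM (log2 change -0.10 ± 0.07, adjusted p = 0.912 in edgeR). Of the 10 identity genes, KLK2, TMPRSS2 and SLC45A3 were lower at an unadjusted p under 0.05.

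**Figure D3:**
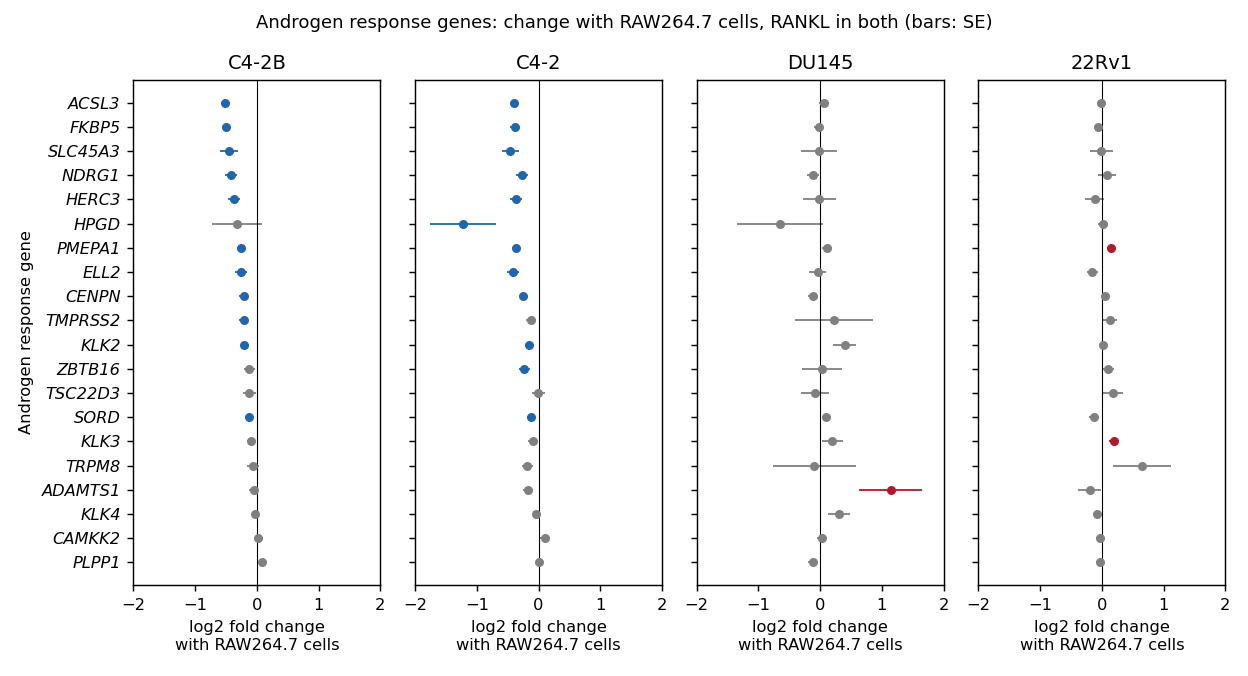
Log2 fold change with RAW264.7 cells, with its SE, of 20 of the 21 androgen response genes tested, in the 4 lines. Blue marks lower and red higher at an unadjusted p under 0.05. C4-2B has 11 blue points and C4-2 has 12, whereas DU145 and 22Rv1 have none.

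The same comparison in C4-2 shares no library with that in C4-2B. At an adjusted p under 0.05 it gave 0 higher genes (0.00%) and 2 lower (0.0174%) in edgeR, H1-2 and RBM42 (-0.59 ± 0.09), and DESeq2 gave 4 and 13. At an unadjusted p under 0.05, 379 were higher (3.29%) and 383 lower (3.32%). All 15 genes called in C4-2B with at least 100 counts changed in the same direction in C4-2, and 13 of them had an unadjusted p under 0.05 there. Their levels did not overlap in C4-2 in 15 of 15 cases, where 18.8% of all genes did not overlap with co-culture higher and 17.3% with co-culture lower. CHRNA2 had a log2 change of -1.004 ± 0.149 in C4-2, CAMK2N1 0.73 ± 0.11 and SMS -0.29 ± 0.05. H1-2, at 523 and 499 CPM against 693 and 706 CPM, was the only called gene of C4-2B past the adjusted threshold in C4-2 (-0.46 ± 0.06, adjusted p = 0.0223 in edgeR). ALCAM and MTRNR2L1 were the 2 that did not reach an unadjusted p under 0.05.

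With the called genes included, 73.0% of the 337 higher and 73.0% of the 400 lower genes at an unadjusted p under 0.05 in C4-2B changed the same way in C4-2, against 57.6% of all genes tested. The log2 changes in C4-2B and C4-2 had a Pearson correlation of -0.0398 over all genes tested. Over the 9125 genes with a mean of at least 100 counts in C4-2B, their Spearman correlation was 0.237. Of the 337, 64 (19.0%) were also higher in C4-2 at that p, and of the 400, 99 (24.8%) were lower. In DU145 the same-direction shares were 51.3% and 53.8%, against 50.8% of all genes, and in 22Rv1 54.0% and 51.2%, against 49.4%. The difference of the change between C4-2B and C4-2 passed an adjusted p of 0.05 for 0 genes (0.00%) in edgeR and 3 in DESeq2, and an unadjusted p of 0.05 for 412 (3.57%). None of the 21 androgen response genes was among the 412. The androgen list in C4-2 had 12 lower and 0 higher genes at an unadjusted p under 0.05 and a median of -0.18.

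**Figure D4:**
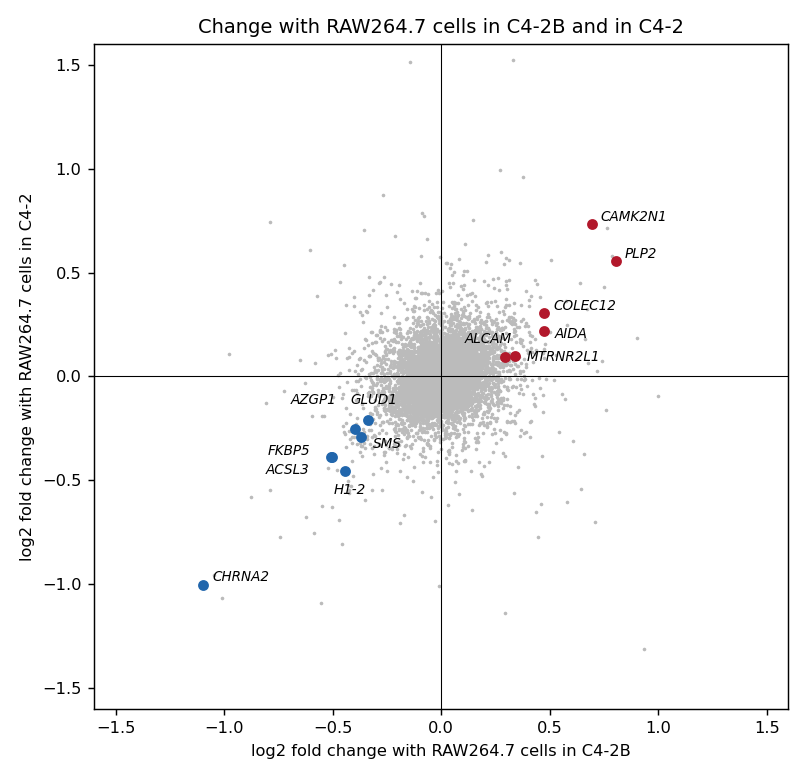
Log2 fold change with RAW264.7 cells in C4-2B (horizontal) and in C4-2 (vertical) for 9125 genes with a mean of at least 100 counts in C4-2B (grey). Of the called genes 13 are named, those higher in C4-2B in red and those lower in blue. All 13 named points lie in the upper right or lower left. FOS and 3 grey genes lie beyond the axis limit of 1.6 and are not drawn.

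The called genes were also read in DU145 and 22Rv1. Of the 15 called genes, 6 had the same direction in DU145 and 2 of these an unadjusted p under 0.05, where 3.05% of all genes were higher and 3.34% lower. At that p 3 went the opposite way, SMS, AZGP1 and CHRNA2. The direction of AZGP1, CHRNA2 and COLEC12 rests on little in DU145, where none of them exceeded 0.737 CPM in any library. In 22Rv1 the numbers were 11 and 1, with 1 opposite at that p and a background of 3.42% higher and 2.85% lower. The androgen list had medians of 0.030 and 0.012 in DU145 and 22Rv1, with 1 and 2 genes higher and 0 lower. The difference of the change between C4-2B and DU145 passed an adjusted p of 0.05 for 3 genes (0.0260%) in edgeR and an unadjusted p for 712 (6.18%), and that between C4-2B and 22Rv1 for 0 (0.00%) and 720 (6.25%). DESeq2 called 8 and 10. SMS was among the 3: it fell by 0.37 in C4-2B and had 123 and 122 CPM with RAW264.7 cells against 107 and 111 CPM in DU145, a difference of -0.53 ± 0.07 (adjusted p = 0.00878 in edgeR). At the unadjusted level, 8 of 21 androgen response genes differed between C4-2B and 22Rv1 and 7 between C4-2B and DU145, all with the lower change in C4-2B. Part of this list was low in DU145, with TMPRSS2 at 0.166 to 0.496 CPM, TRPM8 at 0.249 to 0.557 CPM and KLK2 at 2.57 to 3.88 CPM. The DU145 change of such genes, and the list median there, thus rest on little.

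C4-2B beside MG63 cells without RANKL, set against mono-cultures without RANKL, is another comparison that shares no library with the one described. It was looked at after the values above were known. Of 13454 genes tested in a fit of all 36 libraries, 578 were higher (4.30%) and 799 lower (5.94%) with MG63 cells at an adjusted p under 0.05 in edgeR. All 7 genes higher with RAW264.7 cells that had at least 100 counts were also higher with MG63 cells, 5 of them past that threshold, and of the 8 lower genes 7 were lower and past it. MTRNR2L1, among the 5, was at 3469 and 3081 CPM beside MG63 cells and at 1614 to 1653 CPM in mono-culture without RANKL. In mono-culture with RANKL alone MTRNR2L1 was at 3006 and 3231 CPM, which overlapped its level beside MG63 cells. ACSL3 had 169 and 160 CPM beside MG63 cells and 283 to 320 CPM in mono-culture, a log2 change of -0.83 ± 0.08. SMS had 228 and 225 CPM against 366 to 394 CPM, and COLEC12 64.4 and 65.1 CPM against 36.6 to 41.2 CPM. H1-2 was the exception, at 573 and 520 CPM against 504 to 534 CPM (0.13 ± 0.09). Of the 21 androgen response genes, 14 were lower and 1 higher with MG63 cells, with a median of -0.38. The mono-cultures without RANKL were sequenced more deeply, at 30119803 to 36719047 counts. Mono-cultures with RANKL alone, which had no neighboring cells, also lay below them for some of these genes. KLK2 was at 1274 to 1422 CPM without RANKL, at 648 and 673 CPM with RANKL alone and at 850 and 936 CPM beside MG63 cells. FKBP5 was at 200.5 to 207.3 CPM, at 171 and 177 CPM and at 142 and 141 CPM. The part of depth or of the set of libraries in the MG63 changes was not tested.

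**Figure D5:**
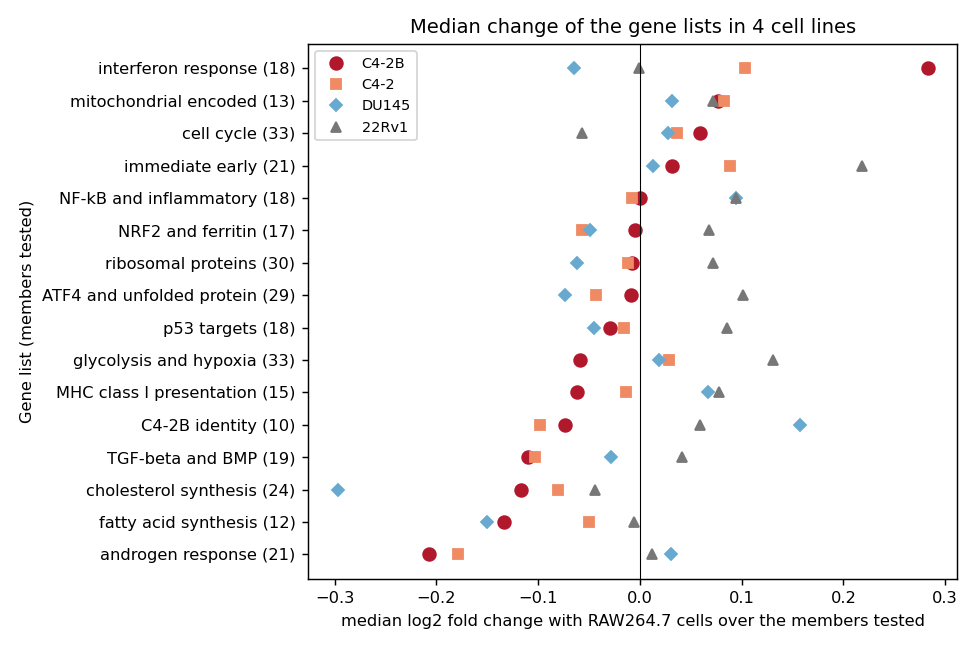
Median log2 fold change with RAW264.7 cells over the tested members of each gene list with at least 10 of them, in C4-2B (circles), C4-2 (squares), DU145 (diamonds) and 22Rv1 (triangles). In C4-2B the androgen response list is lowest at -0.21 and the interferon response list highest at 0.28.

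Lists of lipid synthesis had medians slightly below 0. Of 24 cholesterol synthesis genes tested, 5 were lower and 1 higher in C4-2B at an unadjusted p under 0.05, none past the adjusted threshold, and 14 were lower without overlap. Of all genes, 3.47% were lower at that p and 19.5% lower without overlap. The list median was -0.12. HMGCS1, an early enzyme of the pathway, was at 47.5 and 45.4 CPM in co-culture against 60.9 and 63.9 CPM (log2 change -0.42 ± 0.16, adjusted p = 0.689 in edgeR). In DU145, 21 of the 24 were lower at an unadjusted p under 0.05, against 3.34% of all genes, with a median of -0.30. Of 12 fatty acid synthesis genes, 3 were lower in C4-2B and 0 higher, among them FASN, fatty acid synthase, at 335 and 300 CPM against 373 and 380 CPM.

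Interferon response genes had a median above 0, with none past the adjusted threshold. Of 18 tested, 3 were higher and 0 lower at an unadjusted p under 0.05, 9 were higher without overlap, and the median was 0.28. Of all genes, 2.92% were higher at that p and 16.4% higher without overlap. Some members passed the filter through their level in other lines, as OASL did with 4 and 4 counts in C4-2B co-culture and 3 and 2 with RANKL alone. Over the 10 members with a mean of at least 100 counts in C4-2B, the median was 0.21 and 5 were higher without overlap. Without co-culture replicate 1 the median was 0.19, and without RANKL-alone replicate 2 it was 0.36. MX1, an antiviral GTPase, was at 9.93 and 11.9 CPM in co-culture against 8.67 and 8.07 CPM (log2 change 0.38 ± 0.13, adjusted p = 0.623 in edgeR). IRF7, which amplifies interferon, was at 12.1 and 10.7 CPM against 6.59 and 8.54 CPM. In C4-2 the median was 0.10, with no gene past an unadjusted p of 0.05.

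The inflammatory and bone lists gave no calls at the adjusted threshold. Of 18 NF-kB and inflammatory genes tested, 0 passed an unadjusted p of 0.05 in edgeR. Only 8 of them had a mean of at least 100 counts in C4-2B, and 4 had under 10. What size of change could be detected at such low counts was not tested. CXCL1, a chemokine, was at 0 in all 4 libraries. The median of the 8 was 0.00076. NFKBIA, the feedback inhibitor of NF-kB, was at 147 and 130 CPM in co-culture against 153 and 159 CPM. The 10 genes that the study names from its RNA-seq all missed the count filter, and none exceeded 2.16 CPM in these 4 libraries. SERPINA3, a protease inhibitor, was at 0.432 and 0.260 CPM against 0.540 and 0.338 CPM, and LCN2, an iron-carrier protein, at 0.129 and 0.333 CPM against 0 and 0.324 CPM. Beside MG63 cells the same genes were at 51.5 and 60.5 CPM and at 37.9 and 33.6 CPM. The RANK receptor TNFRSF11A was at 1.79 and 1.34 CPM against 1.47 and 1.52 CPM, and TRAF6, which carries its signal, at 3.56 and 4.07 CPM against 3.45 and 3.97 CPM. TNFSF11 was at 0 in both co-culture libraries. No limit of detection is given for it, because scaled counts are not reads.

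The other lists gave no gene past the adjusted threshold. At an unadjusted p under 0.05, 2.92% of all genes were higher and 3.47% lower, and the counts that follow are at that p. Of 33 cell cycle genes, 1 was higher and 0 lower, and MKI67, a proliferation marker, was at 54.3 and 50.2 CPM in co-culture against 52.5 and 48.8 CPM. Among 18 p53 targets, 1 was higher and 3 lower, with CDKN1A, a cell cycle inhibitor, at 68.9 and 68.5 CPM against 76.5 and 85.3 CPM (log2 change -0.23 ± 0.08, adjusted p = 0.648 in edgeR). Of 30 ribosomal protein genes and 17 NRF2 and ferritin genes, 0 passed an unadjusted p of 0.05. The glycolysis and hypoxia list had 1 lower gene of 33, NDRG1, and 13 were lower without overlap, where 19.5% of all genes were, and its median was -0.06. The ATF4 and unfolded protein list had 1 higher and 2 lower of 29, the TGF-beta and BMP list 1 higher of 19, and the MHC class I list 2 higher of 15. Of 7 metallothioneins 1 was higher, and 0 passed among 6 neuroendocrine, 4 RANK axis, 2 mesenchymal and 1 bone matrix genes tested.

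Of the lower genes with a 2-fold change that missed the adjusted threshold, the 4 of smallest p with at least 100 counts and no overlap are given here. TRIM49D1, of a family of near-identical copies, was at 15.7 and 9.78 CPM in co-culture against 23.2 and 28.8 CPM, and ENST00000420869 and ENST00000605881 of it were listed with equal counts in each of the 4 C4-2B libraries. It had a log2 change of -1.01 ± 0.21 in C4-2B and of -1.07 ± 0.23 in C4-2. IARS2, the mitochondrial isoleucyl-tRNA synthetase, was at 7.59 and 0.469 CPM against 17.3 and 27.7 CPM, so that the ratio between its co-culture replicates exceeded that between the nearest values of the groups. Its log2 change ranged from -5.64 to -1.57 when each library was left out. COX6B1, a subunit of cytochrome c oxidase, was at 6.87 and 4.42 CPM against 10.7 and 13.2 CPM. GTF2IP20, a pseudogene of GTF2I, was at 4.76 and 3.96 CPM against 9.24 and 8.41 CPM, and whether its reads can be told from those of GTF2I was not tested.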

How the data were processed

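RNA of 36 PCa cell line cultures was sequenced, and the 4 C4-2B libraries with RANKL were compared. The authors quantified reads per human transcript with kallisto, and the deposited values are estimated counts per transcript (expected counts) that the authors' methods describe as scaled TPM counts. In the values, at most 3 of 69803 or more values above 1 were whole in a C4-2B library. Among single-transcript genes, the tenth percentile of the values was 2.83 to 3.10 for transcripts of 300 to 600 bases and 0.623 to 0.679 for those of 2200 to 3200 bases (GENCODE lengths). The submitters' processing notes name hg19 and FastQC, and the annotation release is not given in the sources used here. Each of 159837 transcripts was kept once, counts were summed by symbol and rounded, and transcripts without a symbol (0.528% to 0.731% of counts in the RANKL libraries) entered the library totals only. Genes with at least 100 counts in 1 of the 16 RANKL libraries were tested by edgeR 4.0.16 (TMM, quasi-likelihood, Benjamini-Hochberg) in R 4.3.3, with 1 mean per line and culture. The fit had 8 residual degrees of freedom. Other tools were DESeq2 1.42.0 and, added after seeing the data, limma 3.58.1 on log2(CPM + 0.5), and the script was tested on simulated data. No counting interval or floor is given, since a scaled count is not a read, and the count filter favors short transcripts. The RANKL dose and groups come from the labels and the study's methods.

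The 24 gene lists and the comparison were chosen with earlier results of these data known. Genes were named if they passed an adjusted p of 0.05 with at least 100 counts in a C4-2B library and levels that did not overlap, at most 12 in each direction, filled up with genes at 2-fold and an unadjusted p under 0.05. List members past that threshold, up to 4 others per list, genes whose change differed from C4-2 or DU145 and the study's own genes were added. RBM42 was named after its values were seen. Of the list members, 5 symbols were not used here because no entry matched. Some named genes are not reported here.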

Additional observations from a re-analysis of the deposited data

Results flagged for a closer look

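The change with RAW264.7 cells differed between C4-2B and DU145 for 3 genes, by a test of the difference itself in edgeR. The difference for SMS was -0.526 on the log2 scale (SE 0.068, adjusted p = 0.00878). It had an adjusted p of 0.0929 without co-culture replicate 1 of C4-2B and 0.0941 without RANKL-alone replicate 2, and 0.0697 with a replicate block within each line. The difference for XAB2, a factor of DNA repair and splicing, was 2.92 (adjusted p = 6.45e-08, but 0.821 in a fit of all 36 libraries). The change lay in DU145: 4.16 and 4.36 CPM with RAW264.7 cells against 32.0 and 32.9 CPM alone, while C4-2B had a mean of 40.2 ± 0.63 CPM (SD, n = 2) against 40.8 ± 2.1 CPM. The difference for ZNF595, a zinc finger gene, was -1.26 (adjusted p = 0.00452 in edgeR), with 57.4 and 56.3 CPM against 70.4 and 68.5 CPM in C4-2B and 5.55 and 6.27 CPM against 2.66 and 3.33 CPM in DU145. ZNF595 missed the adjusted threshold within C4-2B (0.146 in edgeR). With 2 libraries per group, no group was large enough for a check of single outlying samples.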

How the results depend on the processing

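With 2 libraries per group, depth (11659920 to 15418211 counts) and replication limit what could be called. The change of all 16 called genes kept its direction without each library in turn, with other size factors, without the filter, and in DESeq2, but fewer kept the call: 15 with RLE size factors, 12 in DESeq2 and 0 to 7 without 1 library. The numbers of higher and lower genes at an adjusted p under 0.05 (8 and 8) ranged from 0 to 4 and from 0 to 6 when 1 library was left out, and by the 2-fold rule (20 and 35) from 31 to 44 and from 43 to 61. In DESeq2 13 were lower. With only the 4 C4-2B libraries 5 were lower, with the 8 of C4-2 and C4-2B 5 were higher, and with all 36 libraries 3 were higher. By the 2-fold rule there were 148 and 162 without the filter, 91 and 108 with a minimum of 10 counts in 2 libraries, 4 and 6 with 4 libraries, 2 and 5 with 8, and 54 higher with 36. Those filters admit genes of low counts. With C4-2B without RANKL as control, 854 were higher and 1178 lower (199 and 225 by the 2-fold rule), a contrast that adds RANKL itself. These controls were also sequenced more deeply, at 30119803 to 36719047 counts, so RANKL and the set of libraries cannot be told apart here. In this contrast CAMK2N1 (-0.26), ZFP36 (-0.38), VAV1 (-0.053) and H1-2 (0.40) reversed, and the list medians were -0.51 for androgen response and 0.051 for interferon response. Restricting lists to members with a mean of 100 counts in C4-2B, a choice made after seeing the data, gave medians of -0.17, -0.13 and 0.21 for androgen response, cholesterol synthesis and interferon response. DESeq2 gave 10, 3 and 8 genes for the difference from 22Rv1, C4-2 and DU145, and leaving out a library gave 2 to 5 for DU145. With limma on log2 levels, 4 were higher and 6 lower, 7 and 11 by the 2-fold rule, and the difference passed for 6 genes from DU145 and 1 from 22Rv1, with an interferon response median of 0.21. This test was also chosen after seeing the data. Its fold changes are on the log2(CPM + 0.5) scale, which lowers those of low genes. The cause of these shifts was not tested.

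Equal replicate numbers did not pair the libraries: deviations correlated at -0.063 in C4-2B, -0.028 in C4-2, 0.133 in DU145 and 0.081 in 22Rv1. A replicate block shared by all lines gave 5 higher and 7 lower genes and 5 for the difference from DU145. A replicate block within each line gave 3 higher and 5 lower, and 31 higher by the 2-fold rule.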
